A study of Homo sapiens with 22 samples.

Results

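YAP1 and WWTR1 (the coactivators YAP and TAZ), TEAD1, LATS2, NUAK2, AMOTL1, AMOTL2, AJUBA, AXL and ANKRD1 are genes of the Hippo pathway and its output. They were found by their symbols in the count files, which list 60664 genes. All 10 were present, and 9 passed a filter of more than 10 CPM (gene counts scaled to the size of the library) in at least 2 of 22 libraries, as 9770 genes did. ANKRD1 did not pass. Of these 10 genes, NUAK2 and AMOTL2 rose after epidermal growth factor (EGF) and were lower after knockdown of the kinase MSK2. No EGF comparison called any of the others. TEAD1 was lower after knockdown at every treatment, with a call at 60 min of EGF that was lost without some single libraries. AJUBA was called lower at 30 and 60 min and YAP1 higher at 30 min. Both 30 min calls were lost without some single libraries. The knockdown comparisons called 24.8%, 30.1% and 19.4% of all genes after PBS and EGF for 30 and 60 min.

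In the Hippo pathway, the kinases LATS1 and LATS2 phosphorylate YAP and TAZ and keep them out of the nucleus. Unphosphorylated YAP and TAZ enter the nucleus and bind the TEAD transcription factors, which recognize DNA but activate little on their own. The pathway responds to cell density, stiffness of the matrix, serum lipids and other ligands, and in fibroblasts its targets include matricellular and cytoskeletal genes. Several targets, among them LATS2 and AMOTL2, act back on YAP.

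The cells were IMR90, human fetal lung fibroblasts grown as a line, and all were starved of serum for 24 h before RNA sequencing. Every culture carried 10 nM of siRNA, either a nontargeting control or a single reagent against MSK2, a nuclear kinase encoded by RPS6KA4. Effects of that reagent on other transcripts and effects of MSK2 loss cannot be told apart. The cells then received PBS (4 libraries with control and 4 with MSK2 siRNA), 750 pM EGF for 30 min (4 and 4) or 750 pM EGF for 60 min (3 and 3). The PBS cultures were labelled with a time of 60 min, so PBS was not matched to EGF at 30 min, and the labels do not say whether replicates were separate cultures. P-values therefore measure the spread between libraries, which may be technical.

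Libraries held 7893209 to 22244216 counts assigned to genes. RPS6KA4 was at 11.1 to 26.9 CPM in the 11 libraries with control siRNA and at 1.74 to 3.77 CPM in the 11 with MSK2 siRNA, and no library lay in between. All 10 fibroblast markers examined were among the tested genes, whereas the leukocyte markers summed to at most 1.14 CPM. Epithelial markers summed to 5.615 to 16.75 CPM, and of these CDH1, at 4.744 to 14.69 CPM, was among the tested genes. Endothelial markers summed to 51.1 to 64.7 CPM with control siRNA and to 15.5 to 26.5 CPM with MSK2 siRNA. TEK, at 11.1 to 61.1 CPM, made up the largest part of that sum. VWF was at 1.53 to 5.30 CPM, PECAM1 at 0.128 to 1.60 CPM and CDH5 at 0.355 CPM or less in every library. The fibroblast markers summed to 46040 to 63740 CPM with control and 63670 to 68230 CPM with MSK2 siRNA after PBS, 50170 to 52290 against 64050 to 75580 CPM at 30 min and 53860 to 58100 against 62680 to 67740 CPM at 60 min. The mitochondrial share of gene counts was 1.45 to 1.95% against 2.04 to 2.86% after PBS and 1.16 to 1.59% against 1.82 to 1.95% at 60 min, and it overlapped at 30 min. The part of these differences in the results of the knockdown was not tested. In bulk RNA, fewer cells of a type and less RNA per cell cannot be told apart.

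Transcript levels per exon length spanned a wide range in PBS with control siRNA (RPKM, CPM per kilobase of exon, here from exons merged over all isoforms). AXL, a receptor tyrosine kinase, was highest at 71.7 ± 11.7 RPKM (SD, n = 4). AMOTL2, a scaffold of the angiomotin family that binds YAP, followed at 29.3 ± 2.997 RPKM, beside WWTR1 at 28.9 ± 2.61 RPKM. The 2 could not be ranked, since their libraries overlapped.

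Lower in that order stood AJUBA, a LIM-domain protein that binds LATS kinases, at 13.4 ± 0.265 RPKM. YAP1 was at 10.6 ± 1.20 RPKM and NUAK2, a kinase related to AMPK, at 10.1 ± 1.32 RPKM, with overlapping libraries. TEAD1 (6.63 ± 0.547 RPKM) overlapped AMOTL1, another angiomotin (6.47 ± 0.896 RPKM). LATS2 was at 2.04 ± 0.497 RPKM and ANKRD1 at 0.101 ± 0.0821 RPKM. The order shifted with EGF, as NUAK2 reached 36.9 ± 4.63 RPKM after 60 min with control siRNA (n = 3) and stood above WWTR1, whose libraries there held 28.3 to 29.8 RPKM.

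ANKRD1, a nuclear ankyrin repeat protein often used as a readout of YAP, was close to absent in these cells. It had 0 to 14 counts per library (median 3) and 80 counts in all 22 libraries. The EGF 30 min libraries with control siRNA held 14, 11, 2 and 2 counts, so that 2 libraries of that group carried most of its reads. In the MSK2 siRNA libraries given EGF for 30 min the counts were 4, 0, 7 and 0, and a count of 0 allowed up to 0.201 and 0.184 CPM there. These limits cover counting error only. A response of ANKRD1 was not detectable at this depth.

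**Figure D1:**
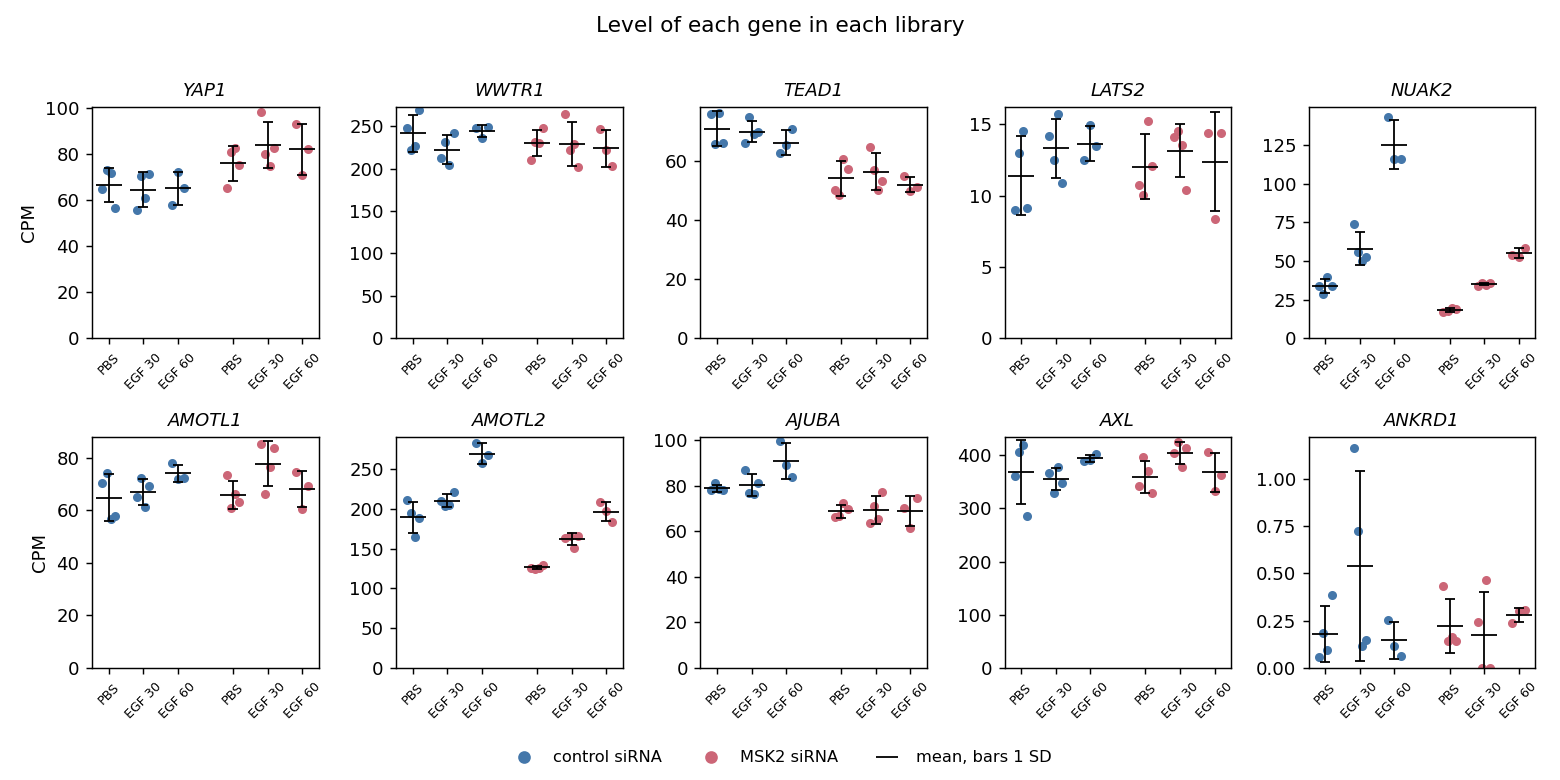
Level of each of the 10 genes in each library, in CPM with the vertical axis from 0. Points are libraries (blue, control siRNA; red, MSK2 siRNA) after PBS or EGF for 30 or 60 min, and black lines are the group mean with 1 SD, cut off at 0. NUAK2 and AMOTL2 climb from PBS to EGF 60 min in both colors, with the red points lower, and ANKRD1 stays at 1.16 CPM or less.

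NUAK2 and AMOTL2 are long-studied targets of YAP and TEAD, and their promoters are shown because these genes carry the EGF response. ANKRD1 is shown beside them as a target that was hardly expressed. RefSeq promoter sequences (GRCh38.p14) were found for 9 of the 10 genes (not TEAD1), with 13 start sites among them. The 250 bases before each start were searched on both strands for the TEAD core GGAATG, whose other strand reads CATTCC. Capitals mark matches.
NUAK2, minus strand, chr1:205321746-205321995: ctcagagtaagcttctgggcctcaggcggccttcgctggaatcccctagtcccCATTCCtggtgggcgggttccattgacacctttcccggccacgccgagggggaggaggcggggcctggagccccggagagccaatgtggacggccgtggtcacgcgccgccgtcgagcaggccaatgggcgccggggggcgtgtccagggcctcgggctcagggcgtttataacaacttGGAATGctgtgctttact
AMOTL2, minus strand, chr3:134374448-134374697: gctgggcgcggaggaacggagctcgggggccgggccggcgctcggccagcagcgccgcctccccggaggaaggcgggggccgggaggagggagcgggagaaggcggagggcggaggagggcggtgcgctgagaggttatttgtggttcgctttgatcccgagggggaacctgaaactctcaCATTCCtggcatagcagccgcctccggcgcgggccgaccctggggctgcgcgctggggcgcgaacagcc
ANKRD1, minus strand, chr10:90921088-90921337: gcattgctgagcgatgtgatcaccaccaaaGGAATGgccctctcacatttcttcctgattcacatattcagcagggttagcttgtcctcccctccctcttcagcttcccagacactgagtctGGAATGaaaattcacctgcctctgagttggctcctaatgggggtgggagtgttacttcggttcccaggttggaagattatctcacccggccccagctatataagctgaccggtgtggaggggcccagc

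The NUAK2 window precedes the gene's single start among the RefSeq promoters, which lies at the GENCODE v44 bound of the gene (chr1:205302063-205321745). It held 2 matches, whose first bases were 197 and 18 bases before the start. ANKRD1 (chr10:90912096-90921087) also held 2, at 220 and 128 bases. At least 2 matches occurred in 0.94% of 35116 promoter windows and in 2 of the 13 windows here.

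AMOTL2 (chr3:134355347-134375479) has 2 starts in RefSeq. The window printed precedes the inner start, lies inside the annotated bounds of the gene, and held 1 match at 69 bases. The window of the outer start (chr3:134375418-134375667) held none. YAP1 (162 bases), AJUBA (59) and AXL (212) each had 1 match before one start, so that 6 of 9 genes and 6 of 13 windows carried the core, which 11.9% of all windows held. These genes include targets long assigned to TEAD, so the count is a description. No window held the AP-1 site TGACTCA (4.2% of all windows), the cAMP response element TGACGTCA (1.65%) or a CArG box, the site of SRF (1.16%). The absence of these letters from 250 bases says nothing about the factors.

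To ask how EGF changed the pathway's transcripts, EGF and PBS were compared within the control siRNA libraries. NUAK2 had 33.7, 28.9, 39.8 and 33.9 CPM after PBS, and 73.7, 55.9, 50.0 and 52.2 CPM after 30 min of EGF. At 60 min it had 143, 116 and 116 CPM. The groups did not overlap, and each time stood above the one before. The log2 fold change was 0.77 ± 0.11 (SE) at 30 min (edgeR quasi-likelihood test, adjusted p = 4.73e-05) and 1.88 ± 0.12 at 60 min (adjusted p = 5.26e-13), a 3.69-fold rise. From 30 to 60 min it rose again by 1.11 ± 0.11 (adjusted p = 7.74e-08).

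AMOTL2 also rose, by less at 60 min. Its PBS libraries had 211, 194, 164 and 188 CPM and those at 30 min 210, 203, 205 and 221 CPM, which overlapped. At 60 min the libraries had 283, 258 and 268 CPM, above all the earlier ones. The log2 fold change was 0.15 at 30 min (95% interval 0.01 to 0.29, adjusted p = 0.978 by edgeR) and 0.51 ± 0.07 at 60 min (adjusted p = 1.89e-05), and it rose by 0.36 ± 0.07 between the times (adjusted p = 0.0038).

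Read against all genes, 1 of the 9 genes passed at 30 min, where 0.614% of the 9770 tested did. At 60 min 2 of 9 passed beside 2.65% of all, and between 30 and 60 min 2 of 9 beside 1.8%. The members' median log2 fold change was 0.02, 0.19 and 0.15 in these comparisons, and that of all tested genes -0.001, -0.014 and -0.004. The 3 comparisons share libraries with one another. The members, and the lists below, were chosen with earlier results of these data known, so such shares are a description only. NUAK2 had the 30th largest rise of all genes at 30 min and the 29th at 60 min. AMOTL2 ranked 1060th and 199th.

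The other members showed no call. YAP1 changed by -0.05 (95% interval -0.27 to 0.17) at 30 min and -0.03 (-0.28 to 0.21) at 60 min on the log2 scale, and WWTR1 by -0.12 (-0.29 to 0.05) and 0.02 (-0.17 to 0.20). TEAD1, their DNA-binding partner, stood at -0.02 (-0.20 to 0.16) and -0.10 (-0.29 to 0.10). The intervals of these 3 genes exclude changes as large as that of NUAK2. LATS2, the inhibitory kinase, had wider intervals, at 0.22 (-0.16 to 0.60) and 0.25 (-0.15 to 0.66), for a reason that was not tested.

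AJUBA was the nearest to a call. Its libraries held 78.0 to 81.2 CPM after PBS and 83.9 to 99.6 CPM after EGF for 60 min, without overlap, and the log2 fold change was 0.20 ± 0.08 (adjusted p = 0.342 by edgeR). AMOTL1 stood at 0.19 (95% interval -0.03 to 0.40) and AXL at 0.10 (-0.10 to 0.29) at 60 min.

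**Figure D2:**
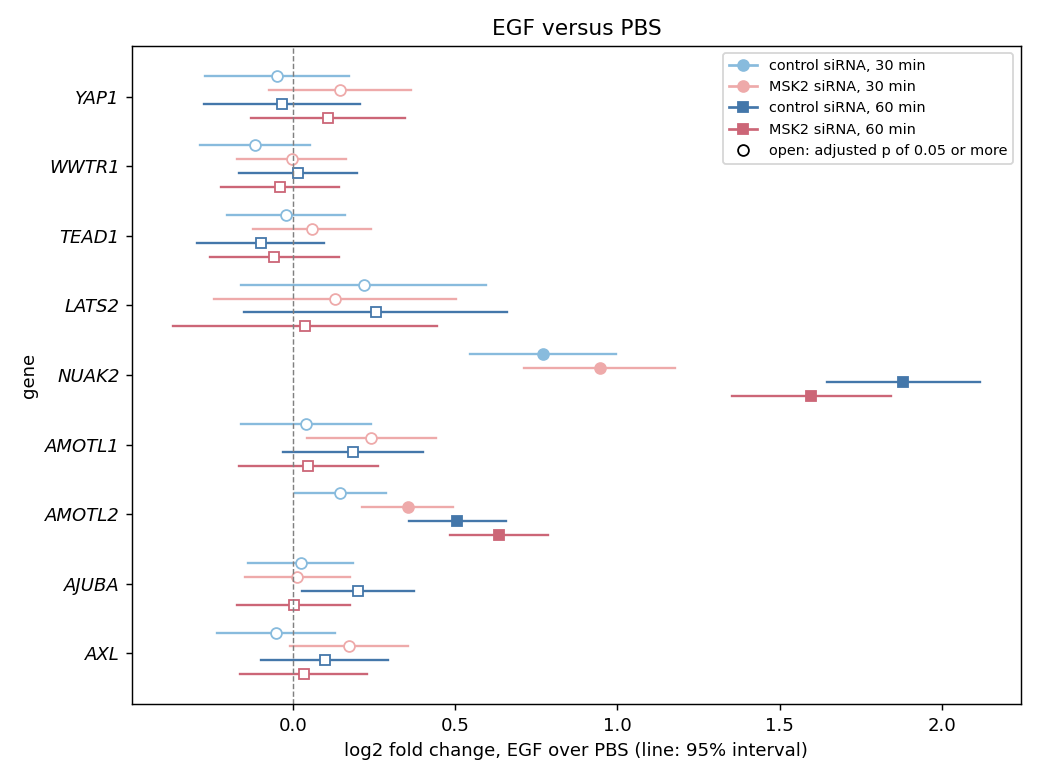
Log2 fold change of EGF over PBS for the 9 tested genes, with its 95% interval as a line. Circles are 30 min and squares 60 min, blue is control siRNA and red MSK2 siRNA, and filled symbols passed an adjusted p of 0.05. NUAK2 lies to the right of all others in each of the 4 comparisons, at 0.77 to 1.88, and AMOTL2 is filled in 3 of them.

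The same comparison was made in cells with MSK2 siRNA. NUAK2 had 16.7, 17.7, 19.4 and 18.9 CPM after PBS, 33.9, 35.6, 34.8 and 35.7 CPM after 30 min and 54.2, 52.3 and 58.6 CPM after 60 min. Again no groups overlapped, and the spread within groups was narrow. The log2 fold change was 0.95 ± 0.11 at 30 min (edgeR, adjusted p = 2.23e-06) and 1.60 ± 0.12 at 60 min (adjusted p = 5.35e-11).

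AMOTL2 had 126, 125, 126 and 129 CPM after PBS. After EGF it had 164, 166, 151 and 166 CPM at 30 min and 209, 197 and 184 CPM at 60 min, again without overlap. It rose by 0.35 ± 0.07 at 30 min (edgeR, adjusted p = 0.00385) and 0.64 ± 0.07 at 60 min (adjusted p = 4.22e-07). At 30 min 2 of 9 members passed beside 0.778% of all genes, and at 60 min 2 of 9 beside 2.16%. The members' medians were 0.15 and 0.04, and those of all genes -0.01 and -0.02. No other member passed, and AMOTL1 at 30 min came nearest with 0.24 (95% interval 0.04 to 0.44, adjusted p = 0.44).

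Whether the EGF response itself differed between the siRNAs was tested as a difference of log2 fold changes. For NUAK2 the difference, MSK2 siRNA minus control, was 0.18 (95% interval -0.15 to 0.50) at 30 min and -0.28 (-0.63 to 0.06) at 60 min (edgeR adjusted p = 0.799 and 1). For AMOTL2 it was 0.21 (0.01 to 0.41) at 30 min, with an unadjusted p = 0.0408 and an adjusted p = 0.713 from edgeR, and 0.13 (-0.08 to 0.34) at 60 min. A response of AMOTL2 at 30 min was therefore called with MSK2 siRNA and not with control, but the 2 responses were not shown to differ.

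None of the 9 members passed in either test of the difference, where 0% of all genes passed by edgeR. At an unadjusted p under 0.05 there were 366 genes higher and 295 lower at 30 min, and 105 higher and 111 lower at 60 min. If no gene differed, a share of about 0.05 of the 9770 tests would fall under this level. DESeq2 called 0 and 3 genes. The members' median difference was 0.18 at 30 min and -0.07 at 60 min, beside -0.001 and -0.004 over all genes. At this depth the intervals leave room for differences of NUAK2 of up to 0.63 on the log2 scale.

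On the linear scale the rises read differently. NUAK2 gained 91.0 ± 9.35 CPM (SE of the difference of means) in 60 min with control siRNA and 36.9 ± 1.97 CPM with MSK2 siRNA. AMOTL2 gained 80.0 ± 12.1 and 70.0 ± 7.23 CPM. These gains were not tested against each other. As a ratio, NUAK2 rose 3.69-fold and 3.03-fold, from a level after PBS that was 1.87-fold lower with MSK2 siRNA.

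**Figure D3:**
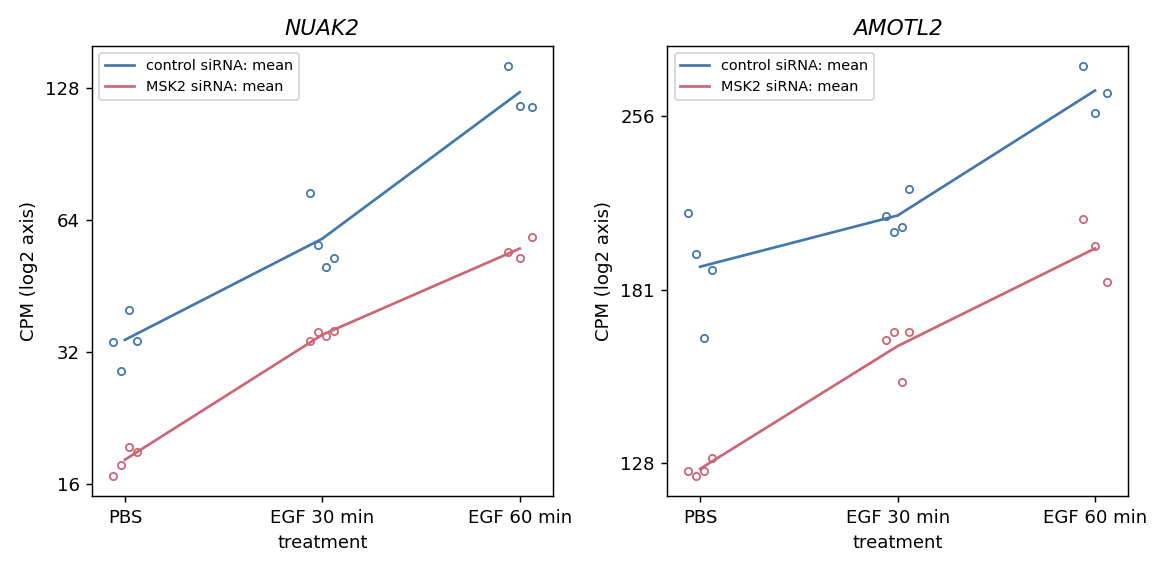
NUAK2 and AMOTL2 by treatment on a log2 axis in CPM, where equal slopes are equal fold changes. Open circles are libraries and lines join group means (blue, control siRNA; red, MSK2 siRNA). The red line starts lower in both genes, at 18.2 CPM against 34.1 for NUAK2 and at 127 against 190 for AMOTL2, and both lines climb.

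Knockdown and control were then compared at each treatment, to ask which genes of the pathway differed in level with MSK2 siRNA. These comparisons call a large part of all genes, 24.8% after PBS, 30.1% after EGF for 30 min and 19.4% after EGF for 60 min. Of the 9 members, 3, 5 and 4 passed. The members' median log2 fold change was -0.07, -0.02 and -0.15, and that of all genes was 0.01 or less in size.

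Of all members NUAK2 was lowered the most, relative to its control level, at every treatment. The library values given above did not overlap between the siRNAs of the same treatment. Its log2 fold change was -0.90 ± 0.11 after PBS (edgeR, adjusted p = 7.61e-07), -0.72 ± 0.11 at 30 min (adjusted p = 7.65e-06) and -1.18 ± 0.12 at 60 min (adjusted p = 3.47e-08), which is 2.27-fold lower. At 60 min, 0.532% of all genes had a lower log2 fold change. After 60 min of EGF with MSK2 siRNA, NUAK2 (55.0 ± 3.25 CPM, n = 3) stood near its level at 30 min with control siRNA (58.0 ± 10.8 CPM, n = 4), and the libraries overlapped.

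AMOTL2 changed by -0.58 ± 0.07 after PBS (edgeR, adjusted p = 2.18e-07), -0.38 ± 0.07 at 30 min (adjusted p = 0.000109) and -0.46 ± 0.08 at 60 min (adjusted p = 9.33e-05), again without overlap. In the reference annotation AMOTL2 shares 2.89% of its exon length with the pseudogene RPL39P5 on the same strand. How reads there were assigned is not given in the sources used here.

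TEAD1, which encodes one of the TEAD factors, had 76.0, 65.7, 76.1 and 66.1 CPM after PBS with control siRNA and 50.2, 48.3, 60.8 and 57.2 CPM with MSK2 siRNA. At 30 min it had 65.9, 74.8, 69.1 and 69.9 CPM against 64.8, 57.1, 50.2 and 53.3 CPM, and at 60 min 62.7, 65.3 and 70.7 CPM against 54.9, 50.0 and 51.2 CPM. The siRNAs did not overlap at any treatment. TEAD1 was lower by a log2 fold change of -0.39 ± 0.09 (edgeR, adjusted p = 0.00145), -0.31 ± 0.09 (adjusted p = 0.00835) and -0.35 ± 0.10 (adjusted p = 0.0156). The call at 60 min was lost without control siRNA replicate 3 (adjusted p = 0.0818), MSK2 siRNA replicate 2 (0.0672) or MSK2 siRNA replicate 3 (0.0558).

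YAP1 moved the other way. After EGF for 30 min it had 55.6, 70.4, 60.8 and 71.5 CPM with control siRNA and 98.3, 80.1, 75.0 and 82.5 CPM with MSK2 siRNA, without overlap. The log2 fold change was 0.38 ± 0.11 (edgeR, adjusted p = 0.0085), and the call was lost without MSK2 siRNA replicate 1, the library with the highest value (adjusted p = 0.0519). It was 0.19 ± 0.11 after PBS (adjusted p = 0.231) and 0.33 ± 0.12 at 60 min (adjusted p = 0.0637), where libraries overlapped. At 60 min a call appeared without control siRNA replicate 2 (adjusted p = 0.0422) or MSK2 siRNA replicate 2 (0.0302). YAP1 shares 9.95% of its exon length with an antisense gene, and the library kit does not mark strand.

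WWTR1, the paralog of YAP1, was not called. It stood at -0.07 (95% interval -0.24 to 0.10), 0.04 (-0.12 to 0.21) and -0.12 (-0.32 to 0.07) after PBS and EGF for 30 and 60 min. The antisense gene WWTR1-AS1 shares 9.05% of its exon length.

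AJUBA had 78.0, 81.2, 78.3 and 78.0 CPM after PBS with control siRNA and 66.3, 66.5, 72.3 and 69.7 CPM with MSK2 siRNA. These libraries did not overlap, but the log2 fold change of -0.20 ± 0.08 missed the threshold (edgeR, adjusted p = 0.065). After EGF for 60 min it had 99.6, 88.8 and 83.9 CPM against 70.4, 61.6 and 74.6 CPM, and the change of -0.40 ± 0.09 passed (adjusted p = 0.00196). At 30 min, where the libraries overlapped, it was -0.21 ± 0.08 (adjusted p = 0.0435), past the threshold by little. That call was lost with library sizes only (adjusted p = 0.0694), with edgeR's filterByExpr (0.0531) and with no filter (0.322). It was also lost without replicate 1 (0.117), 2 (0.0514) or 4 (0.0637) of control siRNA, or replicate 1 (0.143), 2 (0.0617) or 3 (0.0928) of MSK2 siRNA.

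LATS2, AMOTL1 and AXL were not called at any treatment. LATS2 stood at 0.07 (95% interval -0.31 to 0.45) after PBS, -0.02 (-0.39 to 0.35) at 30 min and -0.15 (-0.58 to 0.28) at 60 min. Its libraries held 8.39 to 15.7 CPM. AMOTL1 stood at 0.01, 0.22 and -0.12, and at 30 min its interval of 0.02 to 0.42 lay above 0 with an adjusted p = 0.0899 by edgeR, which became 0.033 without MSK2 siRNA replicate 2. AXL stood at -0.04, 0.19 and -0.10, with an adjusted p = 0.111 at 30 min.

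**Figure D4:**
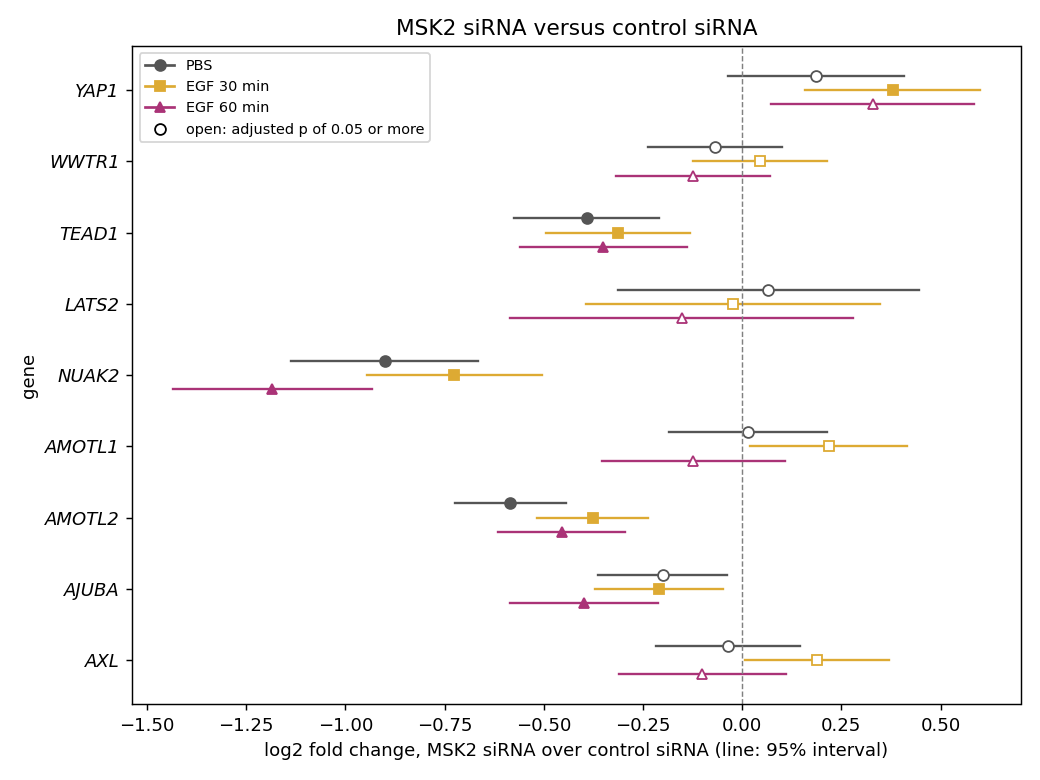
Log2 fold change of MSK2 siRNA over control siRNA for the 9 tested genes after PBS (circles), EGF for 30 min (squares) and EGF for 60 min (triangles), with 95% intervals as lines and filled symbols for an adjusted p under 0.05. NUAK2, AMOTL2 and TEAD1 are filled and left of 0 in all 3, from -1.18 to -0.31, and YAP1 is filled right of 0 at 30 min.

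The remaining genes of the pathway were followed in 4 lists. In the core of kinases and adaptors (STK3, STK4, SAV1, LATS1, MOB1A and MOB1B), none of 6 passed in any EGF comparison. With MSK2 siRNA, SAV1, the scaffold of the upstream kinases, was at -0.36, -0.36 and -0.31 after PBS and EGF for 30 and 60 min, and STK4, one of those kinases, at -0.32, -0.34 and -0.36, all past the threshold (edgeR, largest adjusted p = 0.0405). The PBS comparison called these 2, and at 30 min STK3 also fell and LATS1 rose, by 0.38 ± 0.13 (adjusted p = 0.0287) with overlapping libraries. The calls were thus 2, 4 and 2 of 6, beside 24.8%, 30.1% and 19.4% of all genes, and the list's median was -0.07, -0.10 and -0.28, beside 0.004, 0.008 and 0.009 over all genes.

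Of the upstream regulators, 11 of 12 were tested and none passed in an EGF comparison. With MSK2 siRNA, 4 fell after PBS, 2 rose and 2 fell at 30 min, and 1 fell at 60 min. Of all genes 24.8%, 30.1% and 19.4% were called in these comparisons, and the list's median was -0.14, 0.13 and -0.21. FRMD6, an adaptor upstream of the kinases, was lower at all 3 treatments (-0.50, -0.35 and -0.46). The cadherin DCHS1 was at -0.81 ± 0.21 and the scaffold DLG5 at -0.50 ± 0.17 after PBS, both with overlapping libraries. At 30 min the kinase TAOK3 was at -0.51 ± 0.08 and its paralog TAOK2 at 0.46 ± 0.12.

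Among other TEADs, angiomotins and cofactors, 6 of 8 were tested, and none passed with EGF. TEAD3, a paralog of TEAD1, was lower with MSK2 siRNA, at -1.02 ± 0.10 after PBS, -0.87 ± 0.10 at 30 min and -1.07 ± 0.12 at 60 min (edgeR, largest adjusted p = 2.46e-07). At 60 min TEAD2 (-0.42 ± 0.14) and AMOT (-0.75 ± 0.20) also passed. The calls were 1, 1 and 3 of 6, beside 24.8%, 30.1% and 19.4% of all genes. The list's median was -0.22, -0.26 and -0.41, beside 0.004, 0.008 and 0.009 over all genes.

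Of 17 further targets of YAP and TEAD, all were tested, and 3 rose in each comparison of EGF with PBS. They were CCN1 and CCN2, secreted matricellular proteins, and F3, the tissue factor that starts coagulation. Of all genes 0.614% and 2.5% rose at 30 and 60 min with control siRNA, and 0.768% and 2.11% with MSK2 siRNA. At 60 min with control siRNA, CCN1 rose by 1.55 ± 0.08, CCN2 by 1.23 ± 0.08 and F3 by 1.15 ± 0.07 on the log2 scale (edgeR, largest adjusted p = 3.16e-12). With MSK2 siRNA they rose by 1.76, 1.08 and 1.44. The list's median at 60 min was 0.04 with control siRNA and -0.02 with MSK2 siRNA, beside -0.014 and -0.016 over all genes. None of the other 14 passed in any comparison of EGF with PBS.

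With MSK2 siRNA these targets went in both directions. After PBS 8 fell and 3 rose, at 30 min 5 fell and 4 rose, and at 60 min 7 fell and 1 rose. Over all genes 12.6% fell and 12.2% rose after PBS, 15.2% and 14.9% at 30 min, and 10.1% and 9.37% at 60 min. F3 fell the most, with -1.94 ± 0.06, -1.77 ± 0.06 and -1.65 ± 0.07, and CCN1 followed with -1.05, -0.87 and -0.84. NT5E, the ecto-enzyme CD73, rose by 0.70, 0.85 and 0.79. The list's median was -0.25, -0.08 and -0.28, beside 0.004, 0.008 and 0.009 over all genes. Genes with large changes stood on both sides of 0.

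**Figure D5:**
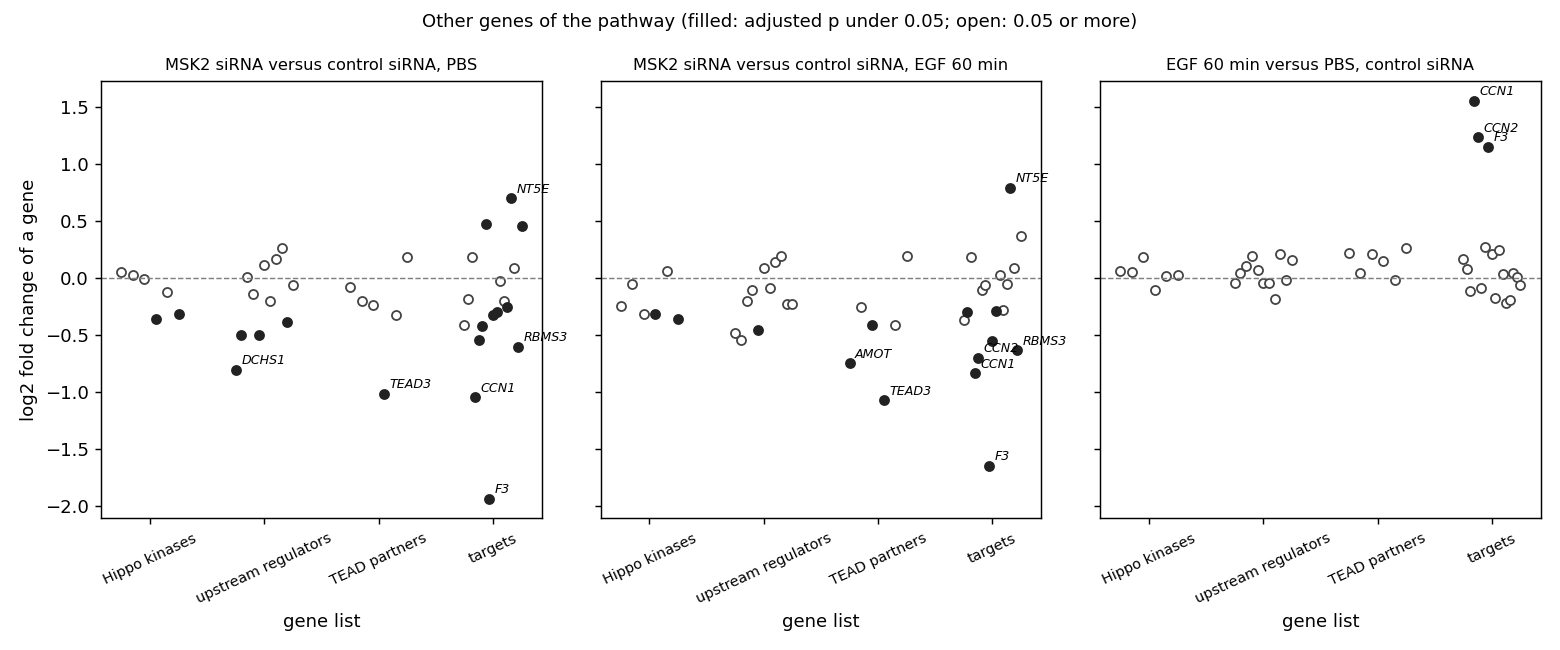
Log2 fold change of each tested gene in the 4 lists of other pathway genes, for MSK2 siRNA over control siRNA after PBS and after EGF for 60 min, and for EGF at 60 min over PBS with control siRNA. Each point is a gene, filled where the adjusted p was under 0.05, and genes past 0.6 in size are named. In the EGF panel the filled points are CCN1, CCN2 and F3 alone, while in both siRNA panels filled points appear in every list.

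By level across the 6 groups, the genes most like NUAK2 were PMAIP1 (Pearson r = 0.9975 of mean log2 CPM), PTGS2 (0.9933), KCTD13 (0.9927), CCN2 (0.9919) and NABP1 (0.9902). Those most like AMOTL2 were VEGFA (0.9965), PPP4R1 (0.9916), SGMS2 (0.9898), LRP12 (0.9888) and BCL3 (0.9874). Each r is a description over 6 group means that share libraries and depth, and r takes no account of size. At 60 min with control siRNA, PTGS2 rose by 2.77 on the log2 scale and NABP1 by 0.20, beside 1.88 for NUAK2.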

How the data were processed

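For cDNA the authors used SMART-Seq v4 and for libraries Nextera XT, neither of which marks the strand, then bcl2fastq 2.20.0.422, STAR 2.7.9a, hg38 and HTSeq 0.13.5, per their methods and processing notes. The annotation release and the strand setting are not given in the sources used here. The deposited values are raw counts per gene, and 5 summary lines per library (18.3 to 22.4% of reads) were left out. The exact test of edgeR, after this CPM filter, was the authors' own.

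Here the 9770 genes with over 10 CPM in at least 2 libraries were fitted in edgeR 4.0.16 (R 4.3.3), with TMM and 6 group means over 22 libraries, by the quasi-likelihood test. Calls had a Benjamini-Hochberg adjusted p under 0.05 over all genes. CPM use TMM-scaled library sizes. Coordinates are GENCODE v44 on GRCh38, the build of hg38. Depth was 7893209 to 22244216 counts per library, and intervals are 95%. The code was tested on simulated data.

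All members were named, and of each list up to 3 called genes per comparison with the largest change. For NUAK2 and AMOTL2 the 5 genes with the highest correlation were named. STK3 was named beside these after its value was seen. Members and lists were chosen with earlier results of these data known. Same-numbered libraries deviated together in every pair only between the siRNAs after PBS (correlations of 0.143 to 0.5 over 4 pairs). With control siRNA they ranged from 0 to 0.416 between EGF 30 min and PBS, and from -0.035 to 0.398 between EGF 60 min and PBS. With MSK2 siRNA all were negative, from -0.348 to -0.07 and from -0.309 to -0.091 in the same comparisons. The labels do not explain this, so the replicate number was a block in an alternative. Alternatives were DESeq2 1.42.0, its size factors in edgeR, library sizes only, edgeR's exact test, filterByExpr, no filter, only the compared groups, the replicate block and each library left out.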

Additional observations from a re-analysis of the deposited data

Results flagged for a closer look

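Among the 10 genes, 40 groups of 4 libraries were tested for a library apart from the rest by the share of the range that separates it, and chance flags about 1 in 20 such groups. AMOTL2 in EGF 30 min, MSK2 siRNA replicate 3 had 150.6 CPM, below the other 3 libraries at 163.8 to 166.3 CPM. AJUBA in PBS, control siRNA replicate 2 had 81.2 CPM, above the others at 77.97 to 78.3 CPM, a gap that is large only because those 3 lay so close together. ANKRD1 in PBS, MSK2 siRNA replicate 1 had 0.4354 CPM from 6 counts, above the others at 0.142 to 0.1657 CPM from 2 or 3 counts. These 3 libraries were kept, and leaving out any of them ended no call of AMOTL2. Without EGF 30 min, MSK2 siRNA replicate 3, the call of AJUBA between the siRNAs at 30 min was lost (edgeR, adjusted p = 0.0928).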

How the results depend on the processing

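The 9 tested genes had 90 values over the 10 comparisons, of which 21 passed the threshold. Of 1503 values under alternatives, 1405 kept the call and direction, 13 lost a call, 7 gained one and 0 past a threshold changed sign, while 78 changes of sign were of values that passed none. Every call of NUAK2 and AMOTL2 held under each alternative and each library left out, as did those of TEAD1 after PBS and at 30 min. The number of members called for MSK2 against control siRNA at EGF 30 min ranged from 3 to 5 with libraries left out, with 3 (YAP1 and AJUBA lost) without MSK2 siRNA replicate 1. In all other comparisons the number stayed within 1.5 times.

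AJUBA at 30 min was lost with filterByExpr, with library sizes only, without a filter and without 6 of the 8 libraries, and TEAD1 at 60 min without 3 of the 6. Calls gained were YAP1 at 60 min (exact test, only the compared groups, and 2 libraries left out), AJUBA after PBS (DESeq2), AXL at 30 min (only the compared groups) and AMOTL1 at 30 min (without MSK2 siRNA replicate 2). The causes were not tested.

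With a replicate block, the same number of members passed as without it in each comparison, such as 3 after PBS and 5 at 30 min between the siRNAs, and over all genes 2636 passed after PBS in place of 2426. Over all genes, no filter on low counts raised the calls from 76 to 216 for 30 min of EGF with MSK2 siRNA and from 176 to 297 between 30 and 60 min. With the filter kept, the 176 became 113 without EGF 60 min, control siRNA replicate 1 and 115 without replicate 2. For the difference of the responses the 0 calls became 49 (30 min) and 4 (60 min) without a filter, 2 at 60 min with the block, and 18 at 30 min without PBS, control siRNA replicate 4, the shallowest library, none of them a member. ANKRD1, with 0 to 14 counts per library, is limited by depth. The reason for the wide intervals of LATS2 was not tested.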

Other observations

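RPS6KA5, which encodes the paralog kinase MSK1, was low in all groups. After EGF for 30 min it was at 6.61 ± 0.749 CPM with control siRNA and 9.09 ± 1.23 CPM with MSK2 siRNA (SD, n = 4 each). Its log2 fold change was 0.46 ± 0.17, with overlapping libraries, 0.15 ± 0.18 after PBS and 0.25 ± 0.19 at 60 min. The gene met the filter only through replicate 3 of EGF 30 min (10.08 CPM) and of EGF 60 min (10.89 CPM) with MSK2 siRNA. Every control siRNA library held 7.72 CPM or less. Since its high libraries alone let it be tested, these changes are descriptions and no call is drawn from them.

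The short core of the cAMP response element, TGACG or CGTCA, was in 4 of the 13 promoter windows of the Hippo genes and in 21.2% of all windows. The full element was in 0 of the 13.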
